A study of Mus musculus with 30 samples.

Results

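Rpph1 and Rmrp are the RNA subunits of RNase P and RNase MRP, and their fragments were followed in every small RNA library of mouse cortex, WT and AD. They were 2 of the 45708 genes to which at least 1 read was matched. A read was counted when its whole sequence was found, without a mismatch and in the sense direction, in a GENCODE vM21 transcript of Rpph1 or Rmrp. This rule uses no measured level, but the pair of genes was chosen with earlier results of these data known. The AD mice were hemizygous for the 5XFAD transgenes, which carry human mutations linked to familial Alzheimer's disease, and the WT mice were their littermates. Mice of both sexes were used, all on a C57BL6/J background and 6 months old. RNA of 15 to 50 nt was cut from a gel. PANDORA-seq treated it with T4PNK, which repairs the ends of RNAs for adapter ligation, and with AlkB, which removes methyl groups that stop reverse transcription, before library construction, in 8 WT and 8 AD libraries. Traditional-seq used the standard protocol, without these enzymes, in 7 WT and 7 AD libraries.

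RNase P removes the leader from the 5′ end of precursor tRNAs in the nucleus, and its RNA subunit is the catalytic part. RNase MRP is a related enzyme of the nucleolus that cuts precursor ribosomal RNA. Both RNAs fold in a similar way, both are transcribed by RNA polymerase III, and both bind most of the same protein subunits. The mitochondrial RNase P of mammals is made of proteins and needs no RNA.

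The Rmrp gene lies on the minus strand at chr4:43492783-43493063 (GRCm38) and is a single exon. GENCODE vM21 holds it under 2 identifiers, as Rmrp-202, a lincRNA of 281 nt (ENSMUSG00000115420.1), and as Rmrp-201, a ribozyme of 271 nt inside it (ENSMUSG00000088088.1). Positions are counted from the first base of the longer transcript. RefSeq starts Rmrp at position 5 and ends it at position 279. The whole transcript is shown because nearly all fragments came from its 5′ end. Capitals mark the sequence with the highest mean RPM over the 16 PANDORA-seq libraries, which led in 8 of them.

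Rmrp transcript: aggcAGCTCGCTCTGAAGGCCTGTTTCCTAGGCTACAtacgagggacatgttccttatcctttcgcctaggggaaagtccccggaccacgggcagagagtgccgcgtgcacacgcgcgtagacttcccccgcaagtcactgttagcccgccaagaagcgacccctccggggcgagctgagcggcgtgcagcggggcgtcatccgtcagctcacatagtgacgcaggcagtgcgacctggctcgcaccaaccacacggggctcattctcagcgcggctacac

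The next 7 sequences are the leading Rmrp fragments of both protocols and the sequence of 45 nt that differed between the genotypes. All of them began at position 5, the RefSeq start. The capitals mark the bases by which each was longer than the shortest of them.

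Rmrp 5-33: agctcgctctgaaggcctgtttcctaggc
Rmrp 5-34: agctcgctctgaaggcctgtttcctaggcT
Rmrp 5-35: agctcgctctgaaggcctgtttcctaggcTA
Rmrp 5-36: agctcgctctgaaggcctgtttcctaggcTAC
Rmrp 5-37: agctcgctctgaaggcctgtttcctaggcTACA
Rmrp 5-41: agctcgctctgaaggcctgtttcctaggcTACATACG
Rmrp 5-49: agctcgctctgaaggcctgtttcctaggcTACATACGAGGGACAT

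The Rpph1 gene lies on the minus strand at chr14:50807449-50807767 (GRCm38), where GENCODE vM21 places a single exon of 319 nt annotated as a ribozyme (ENSMUSG00000092837.1). Exon 1 of a transcript of the protein-coding gene Ccnb1ip1, an untranslated exon, covers positions 36 to 268 of Rpph1 on the same strand, so reads from that stretch could come from either gene. RefSeq gives a longer Rpph1 of 325 nt, which extends past both ends of the GENCODE transcript. The sequences below are the leading exact fragments of PANDORA-seq and the leading reads of both protocols that ran past the annotated 3′ end. Capitals mark the bases past that end.

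Rpph1 135-160: agggctctacgcttgggcagactggg
Rpph1 128-151: agagagcagggctctacgcttggg
Rpph1 from 282, PANDORA-seq: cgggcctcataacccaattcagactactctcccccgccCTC
Rpph1 from 297, PANDORA-seq: aattcagactactctcccccgccCTC
Rpph1 from 282, traditional-seq: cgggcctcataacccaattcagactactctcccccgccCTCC
Rpph1 from 282, traditional-seq: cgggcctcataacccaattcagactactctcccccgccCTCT

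PANDORA-seq libraries held 54926347 to 105876141 reads and traditional-seq libraries 9370669 to 17053412 reads. The longest read was 45 nt in PANDORA-seq but 42 nt in traditional-seq, so exact matches were tested between the protocols over 15 to 42 nt. Levels are given as RPM, the reads of a gene scaled to the total of all reads of the library, matched or not. From 65.2% to 85.2% of the PANDORA-seq reads and from 41.5% to 54.1% of the traditional-seq reads matched no gene exactly. Hairpins of the brain miRNAs miR-124 and miR-9 were present in every library, at 611 to 4157 RPM in PANDORA-seq and 20633 to 55252 RPM in traditional-seq, whereas Mir122, which marks liver, was at 43.2 to 258 RPM in PANDORA-seq and 13.6 to 755 RPM in traditional-seq. Muscle miRNAs were at 1.03 to 5.02 RPM in WT and 1.69 to 191 RPM in AD PANDORA-seq libraries and at 1.63 to 62.97 RPM in traditional-seq. Red blood cell miRNAs were at 6.94 to 14.7 RPM and myeloid miRNAs at 0.726 to 1.698 RPM in PANDORA-seq, and at 28.5 to 269.7 RPM and 5.45 to 59.5 RPM in traditional-seq. The part of these other cell types in the results was not tested. Reads carry no molecular identifiers, so counting error is only a lower limit of the error, and p-values measure the spread between libraries. In bulk tissue, fewer cells of a type and less RNA per cell cannot be told apart.

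By exact matches, Rmrp was more abundant than Rpph1 in every library. Over the 16 PANDORA-seq libraries 694560 reads matched Rmrp, with 1752 distinct sequences, and 40931 matched Rpph1, with 2474 distinct sequences. The traditional-seq libraries held 30416 reads of Rmrp and 445 of Rpph1. A traditional-seq library had as few as 4 and at most 69 Rpph1 reads, and the Rpph1 values of this protocol are correspondingly uncertain. Per 100 nt of transcript, Rmrp stood at 189.7 ± 102 RPM (SD, n = 16) and Rpph1 at 9.55 ± 3.01 RPM (SD, n = 16) in PANDORA-seq. The ratio between them had a median of 16.5 in PANDORA-seq, with a range of 8.62 to 88.7, and a median of 74.3 in traditional-seq, with a range of 25.9 to 546. With the reads past the annotated ends counted, which are described further on, the median ratio was 3.93 in PANDORA-seq, with a range of 1.18 to 14.4, and 7.67 in traditional-seq, with a range of 4.002 to 17.5.

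The reads of both genes differed in how surely they could be assigned. For Rmrp, 99.9% of the PANDORA-seq reads and 99.8% of the traditional-seq reads matched no other gene. For Rpph1 only 15.9% of the PANDORA-seq reads did so, while 75.3% also matched Ccnb1ip1 alone and 8.86% matched a further gene. In traditional-seq these shares were 11%, 60% and 29%.

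**Figure D1:**
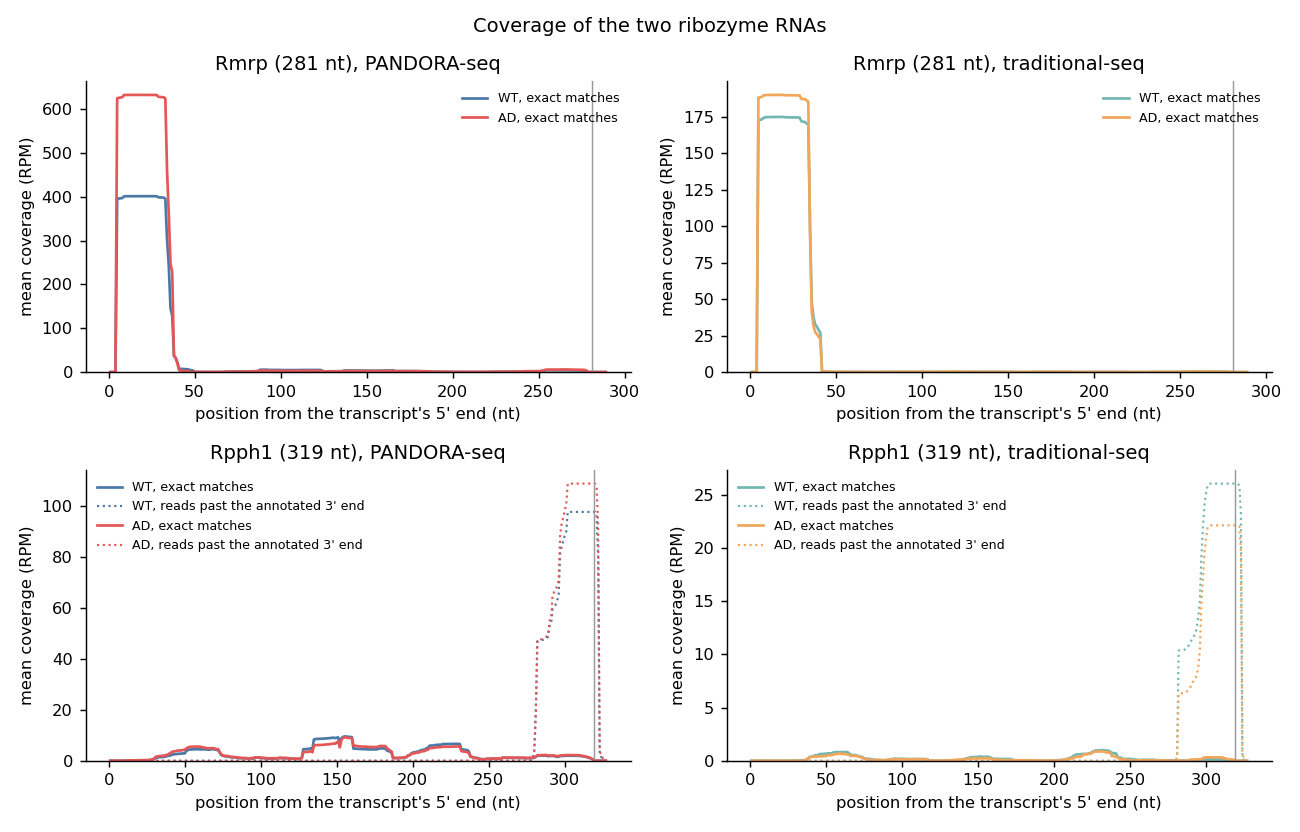
Mean coverage in RPM (vertical axis) along each transcript (horizontal axis, nt from its first base) for Rmrp and Rpph1 in each protocol, with 1 line per genotype; dotted lines are Rpph1 reads that ran past the annotated 3′ end, which a grey line marks. Rmrp forms 1 block at its 5′ end, which reaches 632 RPM in AD and 401 RPM in WT PANDORA-seq libraries, while exact Rpph1 fragments are spread along the RNA and reach 9.21 and 9.60 RPM.

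The Rmrp fragments were 5′ fragments. Reads that began at position 5 made up 94.8% ± 3.18 (SD, n = 16) of the Rmrp reads of 15 to 42 nt in PANDORA-seq and 97.6% ± 1.49 (SD, n = 14) in traditional-seq. The lowest library was at 85% and the highest at 98.97%. Neighbouring starts were rare, at 0.290% for position 6 and 0.0025% for position 4 in PANDORA-seq. The 5′ end was thus sharp to the base in both protocols and lay at the RefSeq start, 4 bases inside the GENCODE start.

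The 3′ ends of these fragments formed a ladder, and the rungs differed between the protocols. In traditional-seq the fragment of 30 nt, Rmrp 5-34, was the most abundant Rmrp sequence in 14 of 14 libraries, with a mean of 78.8 RPM. In PANDORA-seq the leading sequences were Rmrp 5-37 at 139.6 RPM, Rmrp 5-33 at 128 RPM and Rmrp 5-35 at 104.3 RPM, each averaged over 16 libraries. The sequence of 29 nt, which ends just before the first capital T in the list above, accounted for 25% ± 6.70 (SD) of the position-5 reads in PANDORA-seq, with a range of 16.4% to 42%, but for 0.283% ± 0.169 (SD) in traditional-seq, with a range of 0% to 0.638%.

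The opposite held for other rungs. The fragment of 30 nt was at 15.5% ± 5.51 in PANDORA-seq and 46.1% ± 11.4 in traditional-seq, and that of 37 nt, Rmrp 5-41, at 0.178% ± 0.0576 and 12.5% ± 7.46. The fragment of 33 nt was at 25.7% ± 13.9 in PANDORA-seq and 2.47% ± 0.873 in traditional-seq (SD, n = 16 and 14 throughout). For the lengths 29, 30, 33 and 37 nt the libraries of one protocol did not overlap with those of the other, and each differed in a permutation test with 100000 shuffles of the protocol within genotype (p = 1e-05, the smallest possible; adjusted p = 4e-05 over 24 comparisons). The 31 nt fragment differed less, at 21.3% against 28.4% (adjusted p = 0.00375, same permutation test).

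A shift of 1 nt at the 3′ end was also present in miRNAs, which served as a comparison over all mature miRNAs. Only reads that start at the annotated first base and end within 3 nt of the annotated last base were counted. Shares of these reads are means over libraries. In PANDORA-seq 50.2% of them ended 1 nt before the annotated end and 20.6% at it, while in traditional-seq 17.1% ended 1 nt before and 51.1% at it. When PANDORA-seq lengths of Rmrp were set against traditional-seq lengths 1 nt longer, 29 nt was at 25% against 46.1% and 30 nt at 15.5% against 28.4%. The 31 nt and 33 nt fragments of PANDORA-seq, at 21.3% and 25.7%, then faced 5.17% and 0.674%. The 37 nt fragment, at 0.178%, then faced 0.0219%. Under that shift the direction of the differences at 29, 31, 32 and 37 nt turned, while those at 30 and 33 nt kept theirs. All 6 were past the threshold (adjusted p = 0.00246 for 32 nt and 3.43e-05 for the others, permutation test). The part of this 3′ shift in the Rmrp ladder was not tested further.

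**Figure D2:**
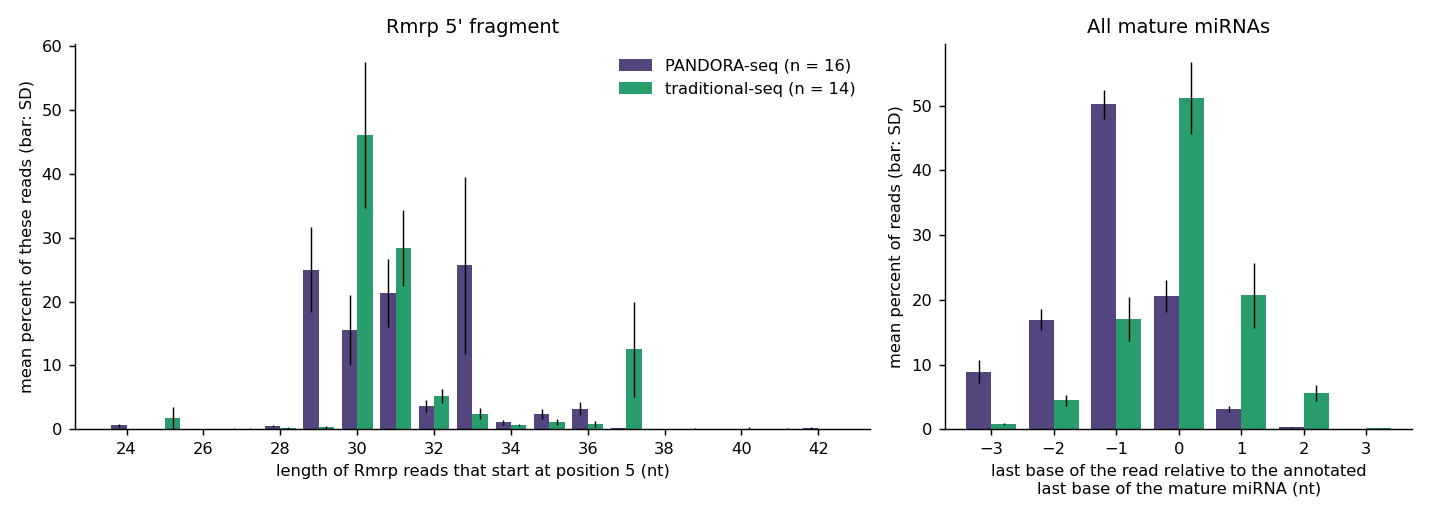
Left, percent of the Rmrp reads that start at position 5 (vertical axis) by read length in nt (horizontal axis). Right, percent of mature miRNA reads by the distance in nt of their 3′ end from the annotated end. Only reads that start at the annotated first base and end within 3 nt of the annotated last base are counted. Bars are means over the libraries of a protocol and error lines are SD. PANDORA-seq peaks at 29, 31 and 33 nt and traditional-seq at 30 nt, with a further rung at 37 nt, and miRNA ends peak at 1 nt before the annotated end in PANDORA-seq and at the end in traditional-seq.

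Fragments from the rest of Rmrp were few. Reads that ended in the last 10 nt of the Rmrp transcript made up 0.954% of its reads in PANDORA-seq and 0.179% in traditional-seq, which differed by 0.775 percentage points (permutation p = 1e-05, adjusted p = 2.25e-05 over 9 measures). Reads that ran past the annotated 3′ end were also found, as described for Rpph1 below. They numbered 10915 in PANDORA-seq and 289 in traditional-seq. As a mean over libraries, 82.9% carried the 2 extra bases TT in PANDORA-seq. In traditional-seq a mean of 84.8% carried TTT, with a range of 64.7% to 100% over libraries. The leading ones were the following, with the extra bases in capitals.

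Rmrp from 254, PANDORA-seq: acggggctcattctcagcgcggctacacTT
Rmrp from 264, traditional-seq: ttctcagcgcggctacacTTT

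Exact Rpph1 fragments had no single dominant form. The 5 most abundant PANDORA-seq sequences were found in 16 of 16 libraries, and the first of them, Rpph1 135-160 (chr14:50807608-50807633), held 9.37% of the Rpph1 reads with a mean of 2.80 RPM. Its level was 3.42 ± 1.6 RPM in WT and 2.17 ± 1.01 RPM in AD (SD, n = 8 each; edgeR log2 fold change -0.68, SE 0.35, adjusted p = 0.387). Rpph1 128-151 followed with 6.97% and the 34 nt fragment of positions 153 to 186 with 6.63%. The other leading sequences were those of positions 211 to 237, which is also present in the Rpph1-like gene Rprl3, and 52 to 72. All 5 lie within the stretch shared with Ccnb1ip1. In traditional-seq the leading exact sequences had 6 to 13 reads each in 1 to 4 of the 14 libraries, too few to describe further.

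Exact Rpph1 fragments also spread over many lengths. In PANDORA-seq 7.91% ± 2.21 of them were 15 to 20 nt long, 20.4% ± 2.94 were 29 to 33 nt and 19.8% ± 4.96 were 34 to 38 nt (SD, n = 16). In traditional-seq these classes held 37% ± 21.1, 18.8% ± 10.9 and 6.20% ± 6.76 (SD, n = 14). Rmrp had no comparable spread, with 86.9% ± 4.17 and 80.7% ± 7.67 of its reads at 29 to 33 nt.

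Exact Rpph1 reads were placed by their midpoints in stretches of 40 nt, and their shares are means over libraries. In PANDORA-seq the stretch that ends at position 160 held 27.9% of the reads, the one that ends at 240 held 19.96% and the one between them 17.7%. In traditional-seq the stretch that ends at 240 led with 35.4%, followed by positions 41 to 80 with 30.8%. The first 40 nt of Rpph1 held 0.686% in PANDORA-seq and 1.37% in traditional-seq, in contrast to Rmrp, where they held 96.3% and 99.1%. This contrast holds for exact matches only. Reads from the RefSeq start of Rpph1, which lies before the GENCODE start, cannot match whole. The RefSeq start of Rmrp lies inside its transcript. Left out of the Rpph1 shares were 3987 PANDORA-seq reads and 7 traditional-seq reads that began before the annotated first base.

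Most Rpph1 reads ran past the 3′ end that GENCODE gives. Reads with at least 18 nt of exact match up to the last annotated base and 1 to 6 further bases numbered 127066 in PANDORA-seq, 310% of the exact Rpph1 reads, and 4091 in traditional-seq, 919% of the exact reads. None of these sequences was found whole in any GENCODE vM21 transcript (0 of 557 distinct sequences in PANDORA-seq and 0 of 188 in traditional-seq). RefSeq extends Rpph1 by 2 bases at this end. No genome sequence was used, so bases copied from the genome and bases added to the RNA cannot be told apart. These reads are outside the rule for exact fragments and are given apart from them.

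Some 5′ ends of these 3′ fragments were common in both protocols, and others were rare in traditional-seq. The shares in this paragraph are means over libraries. Starts at position 282 made up 27.2% of them in PANDORA-seq and 31.9% in traditional-seq, and starts at position 297 made up 14.8% and 18.4%. Starts at positions 281, 302, 292 and 290 made up 16.7%, 8.34%, 8.10% and 4.51% in PANDORA-seq but 1.16%, 1.67%, 0.868% and 0.757% in traditional-seq. The PANDORA-seq read from position 281 with 3 extra bases was 42 nt long, the longest length in traditional-seq. With 4 extra bases, as on most traditional-seq reads, a read from 281 would be longer than that. The low share at 281 therefore cannot be read as a rare 5′ end. These shares of starts were not tested. The 3′ ends differed between the protocols. In PANDORA-seq 77.9% of the reads ended with the 3 extra bases CTC and 16.1% with CT, whereas in traditional-seq 44.3% ended with CTCC, 33.3% with CTCT and 7.49% with CTC. At least 4 extra bases were present on 2.99% of the PANDORA-seq reads, with a range of 1.64% to 6.17%, and on 89.2% of the traditional-seq reads, with a range of 82.1% to 95.5%. The protocols did not overlap (permutation test, adjusted p = 4e-05), and for Rmrp the share with at least 3 extra bases was 14.6% against 96.0% (same test, adjusted p = 4e-05). These shares with extra bases took reads of all lengths. The shift of miRNA 3′ ends between the protocols, given above, had the same direction. Its part in the number of extra bases was not tested.

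**Figure D3:**
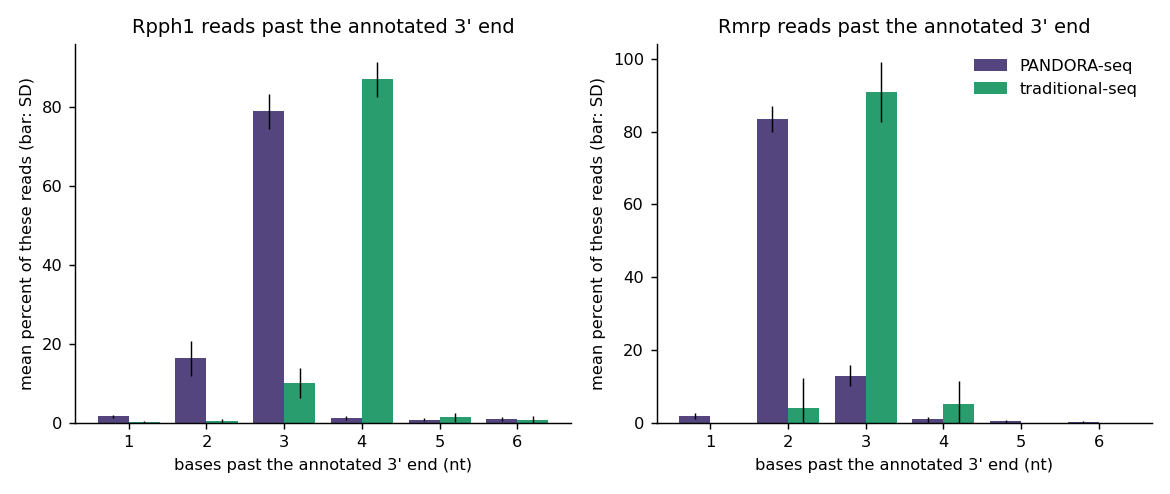
Percent of the reads past the annotated 3′ end (vertical axis) by the number of extra bases in nt (horizontal axis) for Rpph1 and Rmrp, with means over the libraries of each protocol and SD bars. PANDORA-seq reads carried mostly 3 extra bases on Rpph1 and 2 on Rmrp, and traditional-seq reads mostly 4 and 3.

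The 5′ end of Rpph1 gave fewer reads than its 3′ end. Reads that began before the annotated first base, mostly with the extra bases AGTG or GTG, numbered 3987 in PANDORA-seq and 7 in traditional-seq. RefSeq starts Rpph1 4 bases before GENCODE does.

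The level of both RNAs differed between the protocols. Rpph1 ranged from 14.5 to 47.0 RPM in PANDORA-seq, with medians of 28.6 in WT and 28.1 in AD, and from 0.316 to 5.26 RPM in traditional-seq, with medians of 2.25 and 2.94. All 16 PANDORA-seq libraries lay above all traditional-seq libraries. The means were 28.7 ± 8.86 RPM (SD, n = 16) and 2.61 ± 1.73 RPM (SD, n = 14), a difference of 26.1 RPM (permutation p = 1e-05, adjusted p = 2.25e-05 over 9 measures).

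Rmrp ranged from 243 to 1191 RPM in PANDORA-seq and from 40.8 to 338 RPM in traditional-seq. Of the PANDORA-seq libraries 11 of 16 lay above every traditional-seq library. The means were 529 ± 287 RPM and 184 ± 91.1 RPM, a difference of 345 RPM (permutation p = 1e-05, adjusted p = 2.25e-05). For the log2 ratio of Rmrp to Rpph1 reads the means were 4.10 (PANDORA-seq) and 6.36 (traditional-seq), so the protocols differed more for Rpph1 than for Rmrp (difference -2.26, permutation p = 3e-05, adjusted p = 5.4e-05). This last difference rests on exact matches. With the reads past the annotated ends counted it was -0.66 and did not pass (adjusted p = 0.0516). The 3′ fragments of Rpph1 themselves were at 103 ± 79.3 RPM in PANDORA-seq and 24.1 ± 12.1 RPM in traditional-seq (permutation p = 2e-05, adjusted p = 6e-05 over 6 comparisons). That comparison took reads of all lengths, up to 45 nt in PANDORA-seq but only 42 nt in traditional-seq. The part of the longer reads in this difference was not tested.

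Rpph1 reads were also longer in PANDORA-seq, with a mean of 29.2 nt against 23.8 nt, a difference of 5.38 nt (permutation p = 1e-05, adjusted p = 2.25e-05), whereas the mean length of Rmrp reads was 31.1 nt against 31.2 nt (adjusted p = 0.791). With the reads past the annotated ends counted, the difference for Rpph1 was 1.17 nt and did not pass (adjusted p = 0.167). Both protocols shared 14 codes in the names of their libraries, and the labels do not say whether a shared code means the same mouse. Taken as pairs, Rpph1 was higher in PANDORA-seq in 14 of 14 by a mean of 25.5 RPM and Rmrp in 14 of 14 by a mean of 330 RPM. Depth also differed between the protocols, and its part in these differences was not tested. Short non-coding RNA genes took a median of 11.3% of all reads under PANDORA-seq but 49.1% under the standard protocol. RPM divides by all reads, so these levels are shares of totals that differed in make-up. Whether other genes separated the protocols in the same way was not tested.

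**Figure D4:**
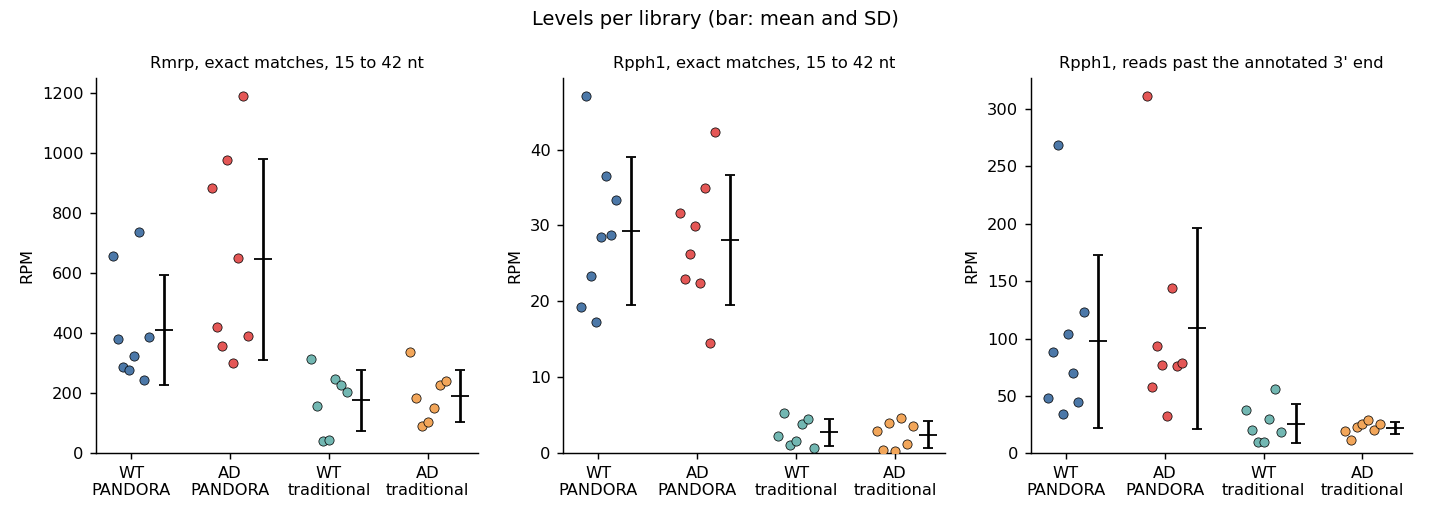
RPM (vertical axis, reads of 15 to 42 nt for the exact matches) of Rmrp, of exact Rpph1 fragments and of Rpph1 reads past the annotated 3′ end in the 4 groups of libraries (horizontal axis), with 1 point per library and the mean ± SD. Exact Rpph1 fragments separate the protocols completely, while the genotypes overlap in each protocol for all 3 measures.

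Neither RNA was called between AD and WT at the level of the gene, in either protocol. In PANDORA-seq Rmrp had a lowest, median and highest level of 243, 352 and 737 RPM in WT and of 301, 535 and 1191 RPM in AD. The groups overlapped, and 3 AD libraries lay above every WT library. The mean was 412 ± 184 RPM in WT and 646 ± 334 RPM in AD (SD, n = 8 each), and edgeR's quasi-likelihood test gave a log2 fold change of 0.85 (SE 0.40, adjusted p = 0.470 with Benjamini-Hochberg adjustment over 19485 genes). That fit took reads of all lengths, and over 15 to 42 nt, as in the RPM values, the log2 fold change was 0.70 (adjusted p = 0.617). Of all genes tested, 0.0308% were called, which is 6 genes, and 0 of the 2 members were. The unadjusted p of Rmrp was 0.0493, as for 2068 genes at an unadjusted p under 0.05.

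Exact Rpph1 fragments were at 17.3, 28.6 and 47.0 RPM in WT and 14.5, 28.1 and 42.3 RPM in AD (lowest, median and highest). These ranges overlapped almost wholly. The edgeR log2 fold change over reads of all lengths was 0.34 (SE 0.39, adjusted p = 0.707). It was 0.14 over 15 to 42 nt, 0.57 for sequences that matched no other gene, 0.15 without AD replicate 8, 0.20 without WT replicate 4, 0.21 without AD replicate 3 and 0.55 without WT replicate 8, and the other libraries left out gave values between 0.24 and 0.47. It was -0.04 when the library total took the place of TMM scaling. That scaling also moved the median log2 fold change of all genes from 0.03 to -0.33. The 3′ fragments of Rpph1 were at 34.5, 79.4 and 268 RPM in WT and 32.6, 77.9 and 312 RPM in AD, with no difference past the threshold (exact permutation test, adjusted p = 0.738).

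In traditional-seq Rmrp was at 40.8, 202.9 and 313 RPM in WT and 92.5, 186 and 338 RPM in AD, and Rpph1 at 0.759, 2.25 and 5.26 RPM in WT and 0.316, 2.94 and 4.65 RPM in AD. The genotypes overlapped for both. The edgeR log2 fold changes were 0.16 (SE 0.56) for Rmrp and -0.18 (SE 0.49) for Rpph1, each with an adjusted p of 0.9998 over 5889 genes, of which 0 were called by edgeR, 167 had an unadjusted p under 0.05 and 1 was called by DESeq2. With single libraries left out they ran from -0.069 to 0.79 for Rmrp and from -0.35 to 0.077 for Rpph1. Neither direction held in every run. The AD against WT difference of log2 RPM was 0.42 higher for Rpph1 and 0.27 higher for Rmrp in PANDORA-seq than in traditional-seq, and neither difference between the protocols passed a permutation test (adjusted p = 0.671 for both).

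Single 5′ fragments of Rmrp showed the same overlap. In PANDORA-seq Rmrp 5-37 stood at 29.3, 63.97 and 231 RPM in WT and at 44.6, 112.6 and 609 RPM in AD (lowest, median and highest). Rmrp 5-33 was at 45.8, 77.9 and 180.03 RPM in WT and 68.5, 134 and 361 RPM in AD. The genotypes overlapped for both fragments, and edgeR gave log2 fold changes of 1.16 (SE 0.54, adjusted p = 0.315) and 0.86 (SE 0.37, adjusted p = 0.262). Rmrp 5-35 had a median of 88.2 RPM in WT and 87.6 RPM in AD, with a log2 fold change of 0.23 (SE 0.34, adjusted p = 0.802).

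The shares of the 5′ ladder were also compared between the genotypes. In PANDORA-seq the Rmrp fragment of 31 nt made up 20.7%, 26.1% and 26.4% of the position-5 reads in WT and 11%, 17.3% and 27.7% in AD (lowest, median and highest). Of the 8 AD libraries 6 lay below every WT library and 1 above every one. The mean was 24.7% ± 2.40 in WT and 18% ± 5.34 in AD (SD, n = 8 each), a difference of -6.72 percentage points (exact permutation p = 0.00699). Adjusted over the 16 genotype comparisons of such shares it did not pass (adjusted p = 0.112), and it passed only when the 8 protocol comparisons were added to the same set (adjusted p = 0.0186). The fragment of 32 nt was at 4.13% ± 0.586 in WT and 3.08% ± 0.939 in AD (exact permutation p = 0.0176, adjusted p = 0.140 over the genotype comparisons and 0.0421 over the mixed set). These lengths were tested after the data had been seen. The most common length was 31 nt in 3 WT libraries and 0 AD libraries, and 33 nt in 3 WT and 5 AD libraries.

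The long Rmrp reads separated the genotypes in RPM of all reads, but not relative to all reads of their lengths, as described below. The tests of these reads were chosen with earlier results of these data known. Over 43 to 45 nt, Rmrp was at 3.88, 5.68 and 8.40 RPM in WT and at 0.473, 1.18 and 3.24 RPM in AD (lowest, median and highest). Every WT library lay above every AD library. The mean was 5.90 ± 1.55 RPM in WT and 1.56 ± 1.05 RPM in AD (SD, n = 8 each), a difference of -4.34 RPM (exact permutation p = 0.000155, the smallest possible; adjusted p = 0.00311 over 20 measures). Exact Rpph1 reads of the same lengths were at 1.57 ± 0.980 RPM in WT and 1.95 ± 0.957 RPM in AD, a difference of 0.376 RPM that did not pass (exact permutation test, adjusted p = 0.881). With the reads past the annotated ends counted, Rpph1 was at 5.94 ± 3.75 RPM in WT and 5.59 ± 4.70 RPM in AD, so that the direction turned, and this difference of -0.348 RPM did not pass either (same test, adjusted p = 0.975).

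Reads of these lengths were fewer in AD as a whole. They made up 15.5% ± 3.19 of all reads of a WT library, with a range of 11.2% to 21.5%, and 4.95% ± 2.90 in AD, with a range of 2.13% to 10.7%. With the total of all reads of 43 to 45 nt as the denominator of RPM, Rmrp was at 37.9 ± 5.14 RPM in WT and 30.8 ± 10.7 RPM in AD and no longer differed past the threshold (exact permutation p = 0.111, adjusted p = 0.738). On the same scale exact Rpph1 reads were at 2.26, 8.98 and 21.5 in WT and at 14.8, 43.6 and 160 in AD (lowest, median and highest; exact permutation p = 0.000777, adjusted p = 0.0155). This ratio divides by a total that was itself lower in AD, and with all reads as the denominator exact Rpph1 reads did not differ past the threshold, so the ratio is a share of a smaller class and does not by itself show a rise of Rpph1. It also rests on exact matches. With the reads past the annotated ends counted, Rpph1 was at 11.02, 39.2 and 79.1 in WT and at 34.7, 100.1 and 235 in AD on this scale, and the difference did not pass (exact permutation p = 0.00513, adjusted p = 0.103). The part of the lower total of long reads in the Rmrp difference was not tested further.

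**Figure D5:**
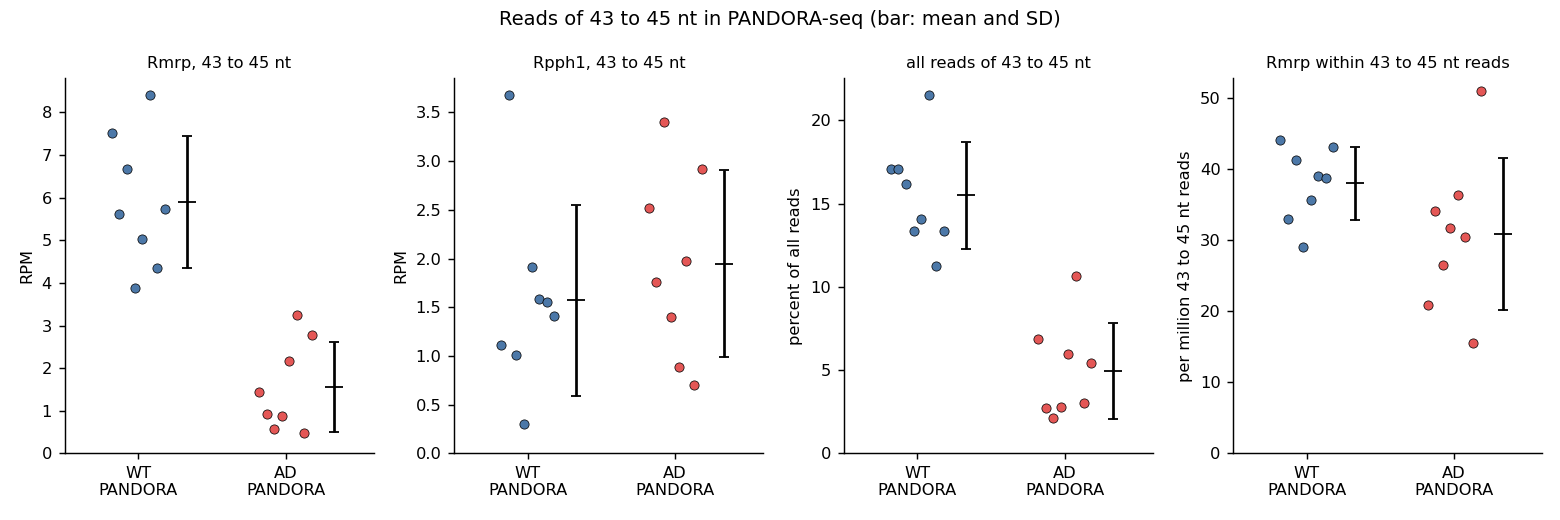
Reads of 43 to 45 nt in the 8 WT and 8 AD PANDORA-seq libraries, with 1 point per library and the mean ± SD: Rmrp in RPM, Rpph1 in RPM, all such reads as a percent of the library, and Rmrp with all reads of these lengths as the denominator of RPM. WT and AD do not overlap in Rmrp RPM and in the percent of all reads, and overlap in the other panels.

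Among single sequences 1 was called. Of the fragments of both genes 71 passed the filter on low counts in PANDORA-seq, 48 of Rmrp and 23 of Rpph1, and edgeR called Rmrp 5-49 (chr4:43493015-43493059), shown above, as lower in AD with a log2 fold change of -3.82 (SE 0.76, adjusted p = 0.00319). Over all 20180 sequences tested, 4.29% were called as lower and 0.144% as higher. The reads of Rmrp 5-49 numbered 125 to 506 in the WT libraries and 1, 3, 1, 5, 12, 122, 2 and 18 in AD replicates 1 to 8. The AD library with 122 reads stood at 1.48 RPM, just below the lowest WT library at 1.54 RPM. Without that library the log2 fold change was -5.41.

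Among the sequences of 43 to 45 nt the share called lower was 42.4%, with a median log2 fold change of -1.98, and among those of 15 to 42 nt it was 0.523%, with a median of 0.19. Of the 3 fragments of Rmrp and Rpph1 tested at 43 to 45 nt 1 was called, and of the 68 shorter ones 0. The Rmrp sequence of 43 nt from the same start had a log2 fold change of -1.53 (SE 0.55, adjusted p = 0.157) in edgeR and was called by DESeq2 (adjusted p = 0.0345). DESeq2 thus called 2 of the 71 sequences, both lower in AD, beside 6.52% of all sequences called lower and 0.882% called higher. The 48 Rmrp sequences had edgeR log2 fold changes of -3.82 to 1.16 with a median of 0.25, of which 11 had an unadjusted p under 0.05, beside 3058 (15.2%) of all 20180 sequences. The 23 Rpph1 sequences ranged from -0.83 to 0.66 with a median of -0.47 and a smallest adjusted p of 0.287, and 1 had an unadjusted p under 0.05. A looser filter, of at least 10 reads over all libraries, let 588 Rpph1 and 357 Rmrp sequences be tested and called 3 of them, beside 2.9% of all 93178 sequences called lower and 0.158% called higher. Lower in AD were the Rmrp sequences of 44 and 45 nt from position 5, and higher in AD was 1 Rpph1 sequence of 40 nt, with a log2 fold change of 4.04 (SE 1.15, adjusted p = 0.0444 in edgeR). That sequence did not pass the main filter on low counts. It lies whole within the stretch shared with exon 1 of Ccnb1ip1, so it cannot be assigned to Rpph1 alone. It was singled out after its values were seen and is the following.

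Rpph1, 40 nt: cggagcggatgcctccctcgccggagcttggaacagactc

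In traditional-seq 9 Rmrp sequences passed the filter, with log2 fold changes of -0.38 to 0.30, 0 with an unadjusted p under 0.05, and 0 of 4034 sequences were called by edgeR or by DESeq2.

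Fragments of the mRNAs for the proteins of these enzymes showed no call. The list held the RNase P and RNase MRP subunits Pop1, Pop4, Pop5, Pop7, Rpp14, Rpp21, Rpp25, Rpp25l, Rpp30, Rpp38 and Rpp40, the mitochondrial RNase P proteins Trmt10c, Hsd17b10 and Prorp, also searched as 1110008L16Rik, and Elac1 and Elac2, which trim the 3′ end of precursor tRNAs. In PANDORA-seq 15 of the 16 genes passed the filter and 0 were called in either direction, beside 0.0308% (6) of all 19485 genes tested. At that share almost any list of 15 genes would hold no call, so this count does not compare the list with the background. At an unadjusted p under 0.05 were 0 of the 15, beside 2068 of all genes. The edgeR log2 fold changes, AD against WT, ran from -0.49 for Rpp25 (SE 0.34, adjusted p = 0.551) to 0.40 for Pop1 (SE 0.29, adjusted p = 0.570). Rpp38 had 159 reads and was not tested. The gene for Prorp carried the symbol 1110008L16Rik in this annotation and was tested under it, at 0.04 (SE 0.19, adjusted p = 0.946). In traditional-seq only Pop1 passed the filter, at 0.14 (SE 0.39, adjusted p = 0.9998). Reads of 15 to 45 nt from an mRNA are pieces of it, and their number is no measure of the whole mRNA.

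The genes whose level was most like that of Rmrp over the 16 PANDORA-seq libraries, by Spearman's rho of RPM among 19484 genes, were Mir25 at 0.903, Snx33 at 0.9, Galnt15 at 0.891, Mir101a at 0.882 and Msn at 0.882. For Rpph1 they were Gm22589 at 0.779, Echdc3 at 0.765, Ifi27l2a at 0.762, Igha at 0.759 and Ifi35 at 0.756. These correlations are over libraries that differed in depth and in length profile, and the part of either was not tested. The highest of many were chosen.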

How the data were processed

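The deposited files give, for each of the 30 libraries, the read count of each distinct sequence after the authors removed the adapters, without normalization or annotation. The submitters' processing notes name mm39. The authors annotated their reads with SPORTS1.1, which was not used here. Sequences of 15 to 45 nt were matched whole and sense to GENCODE vM21 (GRCm38) transcripts. Read counts per gene and per distinct sequence of short non-coding RNA genes were tested across all features with edgeR 4.0.16 in R 4.3.3 (TMM, filterByExpr at counts of 10 and totals of 15, quasi-likelihood test, Benjamini-Hochberg adjustment), with calls where the adjusted p was below 0.05 and the fold change above 2. The study used edgeR's likelihood ratio test at the same thresholds. That test and DESeq2 1.42.0 were alternatives. Single measures were compared by exact permutation, two-sided, over the 12870 (8 against 8) or 3432 (7 against 7) splits, and protocols by 100000 shuffles within genotype. Further alternatives were 1 mismatch, reads that match no other gene, an end window of 5 nt in place of 10, reads of at least 18 nt, the library total in place of TMM, other filters, the replicate number as a block and each library left out. Other steps used Python 3.11.15, numpy 2.4.6 and pandas 2.3.3.

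Rpph1 and Rmrp, the list of related genes and the tests were chosen with earlier results of these data known. Single exact sequences named are among the 5 with the highest mean RPM of a gene and protocol, or were called under some setting. The reads printed that run past an annotated end are leading ones of their gene and protocol. Reads past an annotated end, the shares of each Rmrp length and RPM relative to all 43 to 45 nt reads were added after seeing the data, as was adjustment of the length shares within genotype or protocol comparisons. Some but not all libraries with the same replicate number deviated together (correlations of -0.263 to 0.409 over 8 pairs in PANDORA-seq and -0.085 to 0.249 over 7 pairs in traditional-seq), so they were not treated as pairs. On simulated counts with 200 genes changed 4-fold, edgeR recovered 200 of 200 in the PANDORA-seq comparison and called 2 others. The changed genes were drawn from those with higher mean counts, and the dispersion was fixed. This recovery does not extend to smaller changes, lower counts or a wider spread between libraries. On simulated reads, 199 of 199 Rpph1 and 193 of 193 Rmrp fragments were matched. These reads were unchanged pieces of the transcripts that were searched, so this shows only that the search ran correctly. The shortest read lengths were not simulated.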

Additional observations from a re-analysis of the deposited data

Results flagged for a closer look

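In 15 of 79 groups of values 1 library stood apart from the others of its group, by Dixon's 95% critical value, which chance passes in about 1 in 20 groups of independent, normally distributed values. Many of these measures overlap or have a floor at 0, so that rate is only a guide. Several of these concern the 3′ end of Rpph1. AD PANDORA-seq replicate 1 had 312 RPM of reads past the annotated 3′ end of Rpph1 (other AD libraries 32.6 to 144 RPM) and 18.5% of its exact reads ending in the last 10 nt (others 3.50% to 8.90%). WT PANDORA-seq replicate 3 had 268 RPM past that end (others 34.5 to 124 RPM) and 17.1% of exact reads in the last 10 nt (others 2.78% to 8.95%). In these libraries the 3′ fragments of Rpph1 were high by both counts. When single libraries were left out, the AD minus WT difference of these reads ran from -17.8 to 35.5 RPM.

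At least 4 extra bases were on 5.81% of the Rpph1 reads past the 3′ end in WT PANDORA-seq replicate 2 (others 1.64% to 2.95%). At least 3 extra bases were on 70.6% of such Rmrp reads in AD traditional-seq replicate 3 (others 97.9% to 100%). Reads starting in the first 10 nt of Rpph1 made up 0.131% in AD PANDORA-seq replicate 4 (others 0% to 0.0446%) and 2.17% in WT traditional-seq replicate 5 (others 0%). Reads ending in the last 10 nt of Rpph1 made up 22.2% in WT traditional-seq replicate 7 (others 0% to 9.38%), and the mean length of Rpph1 reads was 16.5 nt in AD traditional-seq replicate 4, which held 4 such reads.

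For Rmrp, the share of reads that start in the first 10 nt was 88.6% in WT PANDORA-seq replicate 7 (others 93.9% to 98.2%) and 96.4% in WT traditional-seq replicate 4 (others 98.3% to 99.8%), which also had 0.798% of reads ending in the last 10 nt (others 0% to 0.342%). AD traditional-seq replicate 5 had a mean Rmrp read length of 31.98 nt (others 30.8 to 31.3 nt), and the fragment of 37 nt made up 25.3% of its position-5 reads (others 7.49% to 13.1%).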

How the results depend on the processing

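Apart from leaving out libraries, 238 of the results under other settings kept their direction and their side of the threshold, 19 reversed, 3 became stronger, 6 weaker and 2 moved; with 1 library left out, 766 were kept, 27 reversed, 12 became weaker and 9 moved. The protocol differences of Rpph1 RPM, Rmrp RPM and the Rmrp end share and the lower Rmrp RPM of 43 to 45 nt in AD kept their direction in every alternative run, and only the last lost its call, with all 43 to 45 nt reads as the denominator (-7.17 RPM, or -6.68 RPM with reads past the annotated ends; Rpph1 gave 42.5 RPM, which then passed, or 80.5 RPM with those reads, which did not). With reads past the annotated ends counted, AD minus WT was 11.6 RPM for Rpph1, -0.348 RPM for its 43 to 45 nt reads, 0.597 percentage points for its start share, -0.236 nt for its mean length and, in traditional-seq, 0.308 points for the Rmrp end share, and between protocols the Rpph1 start share gave 1.7 and its end share -17.6 (both past the threshold), its mean length 1.17 nt and the log2 ratio -0.66. With 1 mismatch allowed, the Rmrp end share gave 0.219 (AD minus WT, traditional-seq) and the Rpph1 end share -6.46 between protocols. Only reads that match no other gene gave Rpph1 0.355 RPM and an end share of -1.11 in PANDORA-seq and 0.121 RPM in traditional-seq. An end window of 5 nt gave an Rpph1 end share of 0.905, and the Rpph1 start share between protocols was 0.0225 with reads of at least 18 nt and 0.0242 without genes other than Ccnb1ip1 (both past the threshold). Library codes as pairs gave 0.000155 nt for the Rmrp length, traditional-seq lengths less 1 nt gave -21.1, 16.2, 1.14 and 0.156 points for 29, 31, 32 and 37 nt, the library total gave a log2 fold change of -0.036 for Rpph1, DESeq2 called 2 sequences (Rmrp, lower in AD; 1493 of all 20180) and a filter of at least 10 reads 3 (2 of Rmrp lower and 1 of Rpph1 higher in AD; 2851 of all 93178). Adjusted within the genotype comparisons alone, the 31 nt (-6.72 points) and 32 nt (-1.05 points) differences between AD and WT lost their call, because the protocol comparisons no longer shared the set. The cause of the other changes was not tested.

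With 1 library left out, ranges in PANDORA-seq (AD minus WT) were -3.16 to 1.41 RPM for Rpph1, -1.01 to 2.05 points for its end share, -17.8 to 35.5 RPM past its 3′ end, -0.0962 to 0.0975 nt for Rmrp length, -1.32 to -0.84 points for 32 nt and 1 to 2 called sequences; in traditional-seq -0.700 to 0.0813 RPM and -0.35 to 0.077 on the log2 scale for Rpph1, -6.66 to 1.11 RPM past its 3′ end, -9.23 to 38 RPM and -0.069 to 0.79 on the log2 scale for Rmrp, -0.105 to 0.0278 points for its end share and -0.158 to 0.266 nt for its length; and between protocols -0.131 to 0.0365 for the Rpph1 start share and -1.85 to 0.0713 for its end share. With the replicate block, Rpph1 gave 0.32 and -0.16 and Rmrp 0.91 and 0.45 (PANDORA-seq, traditional-seq; log2 fold change) and 1 sequence was called, so the block changed no call. The stricter filter and the sequences of no other gene gave no value for Rpph1 counts in traditional-seq, which did not pass the filter.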
